A study of Mus musculus with 8 samples.

Results

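The genes followed here were 9 of the fibroblast growth factor (FGF) system: the ligand genes Fgf4, Fgf5, Fgf15 and Fgf17, the binding protein gene Fgfbp1, and the receptor genes Fgfr1, Fgfr2, Fgfr3 and Fgfr4. They were picked by name, with earlier results of these data known. Their probes were found by matching each probe's RefSeq accession to a symbol. All 9 had a probe and entered the tests, as 9 of 15180 genes tested and of 21154 genes named on the array. Together they had 14 probes on 23 spots of each array, and 13 of these probes were well above background on all 8 arrays.

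FGFs are secreted ligands that bind receptor tyrosine kinases together with heparan sulfate chains on the cell surface, and the receptors pass the signal through adaptor proteins to RAS and the kinase ERK. Embryonic stem (ES) cells of the mouse secrete FGF4, which acts on the same cells, readies them for differentiation and, in the embryo, steers the inner cell mass towards primitive endoderm. Feedback inhibitors such as the Sprouty proteins and the phosphatase DUSP6 are made in response to ERK and dampen it.

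Expression was measured on 8 one-colour arrays of mouse ES cells that are H-Ras-/- and N-Ras-/- and also carry K-Raslox/lox and RERTert/ert, in which 4-hydroxy-tamoxifen (OHT) removes K-Ras, the RAS gene that is left. Cells labelled ERF-WT (wild type below) or ERF-KO (labelled knockout below) were untreated or received OHT for at least 2 days, which gave 4 groups of 2 arrays. All were grown on gelatin with serum and the cytokine LIF, and each sample was a mix of 2 clones. The design asks how far ERF, an ETS-family repressor that ERK keeps out of the nucleus, shapes the response. Wild type came as pools A1 and B1 and the labelled knockout as pools A2 and B2, and each pool was sampled both untreated and with OHT. OHT reached only cells that carry the inducible deletion, so the action of the drug and the loss of RAS cannot be told apart.

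Levels are given as log2 of the spot intensity minus the log2 of that array's 75th percentile, so a level of 0 is the array's 75th percentile and a difference of 1 is a doubling. A level of one probe is never set against that of another. The share of spots well above background was 54.0 to 63.6% by array, and saturation affected 0 spots. Slide 2 held only both arrays of pool B1, so a change within B1 is also a change within slide 2, and all other changes lie within slide 1. Areas of low signal, called dark patches here, covered 3.08% of the spots of pool A2 with OHT and 1.19% of those of pool B2 with OHT, against 0 to 0.43% elsewhere. A dark patch touched a single member spot, of Fgfr2.

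Erf itself read 5.12 in A1 and 5.43 in B1 untreated, and 4.98 and 4.93 with OHT. Its level in the labelled knockout was 3.45 in A2 and 5.65 in B2 untreated, and 3.92 and 5.31 with OHT. Pool A2 was thus below the wild type and pool B2 was not. Where the Erf probe lies and what the deletion removes are not given in the sources used here, and the levels therefore do not check the genotype labels. Pool A2 stood apart in cell type markers too. Of the 8 ES cell markers, such as Pou5f1 and Sox2, 7 or 8 were above background on every array, and their summed level relative to the 75th percentile was 297 to 314 in A2 against 427 to 644 in the other pools. The 5 measured trophoblast markers were above background on every array and summed to 7.16 and 7.72 in A2, against 1.60 to 3.22 in the other pools. Primitive endoderm markers, 6 or 7 of 7 above background, summed to 1.72 to 3.04 in the wild type and 1.27 to 1.58 in the labelled knockout. Fibroblast markers, 6 or 7 of 7 measured, overlapped between the groups at 22.0 to 42.5. The part of these cells in the FGF results was not tested, and in bulk RNA fewer cells of a type and less RNA per cell cannot be told apart.

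Because ERF is an ETS factor, the 250 bases before the annotated start of each member were read for ETS motifs. The RefSeq promoter table for build GRCm38.p6 held windows for 6 members, 7 windows in all. The windows of Fgf4 (chr7:144861136-144861385, plus strand), Fgf5 (chr5:98253934-98254183, plus strand), Fgfr2 (chr7:130266809-130267058, minus strand) and Fgfr4 (chr13:55152568-55152817, plus strand) are shown, since these 4 genes passed in the wild type in the paired fit described below, 2 of them lower and 2 higher with OHT. Each is written 5' to 3' on the gene's strand, with the ETS core GGAA, or TTCC where it lies on the other strand, in capitals.
Fgf4: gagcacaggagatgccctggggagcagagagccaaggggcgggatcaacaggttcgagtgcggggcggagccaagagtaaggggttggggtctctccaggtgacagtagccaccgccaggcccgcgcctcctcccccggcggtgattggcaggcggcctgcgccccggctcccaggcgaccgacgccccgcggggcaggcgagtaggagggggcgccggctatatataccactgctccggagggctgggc
Fgf5: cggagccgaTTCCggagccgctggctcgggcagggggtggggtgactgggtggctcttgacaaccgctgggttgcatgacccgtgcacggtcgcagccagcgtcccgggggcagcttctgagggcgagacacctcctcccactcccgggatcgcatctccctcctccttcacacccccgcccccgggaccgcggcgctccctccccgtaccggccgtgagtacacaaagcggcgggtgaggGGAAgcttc
Fgfr2: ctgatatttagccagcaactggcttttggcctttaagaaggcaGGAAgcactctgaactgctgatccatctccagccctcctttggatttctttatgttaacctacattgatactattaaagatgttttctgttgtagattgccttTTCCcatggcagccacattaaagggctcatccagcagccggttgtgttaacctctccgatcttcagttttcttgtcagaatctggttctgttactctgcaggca
Fgfr4: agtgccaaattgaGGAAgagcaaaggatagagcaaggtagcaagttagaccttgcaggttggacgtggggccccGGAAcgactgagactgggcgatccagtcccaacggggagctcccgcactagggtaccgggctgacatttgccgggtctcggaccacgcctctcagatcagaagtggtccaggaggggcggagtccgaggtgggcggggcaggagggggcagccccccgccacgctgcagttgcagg
The longer motif CCGGAAG, searched on both strands, was in 0 of the 7 member windows and in 6.91% of all 32851 windows of this length. The core GGAA, which is part of that motif, occurred 0 times in the Fgf4 window, as in 6.55% of all windows, and 2 times in each of the Fgf5, Fgfr2 and Fgfr4 windows. It occurred 1 and 5 times in the windows of Fgfr3 and 9 times in that of Fgfbp1, beside a median of 3 over all windows, of which 93.4% held it. These are matches of letters and not binding sites.

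The members were read from 2 fits of the whole table. The main test was limma on the group means, and the paired fit is 1 of the 29 other settings tried. Members said to pass in the paired fit did not pass in the main test. limma on the 4 group means takes all 8 arrays as independent and leaves 4 residual degrees of freedom. The paired limma fit takes the 4 pools as blocks, leaves out dark patches, and lets the variance follow the level with protection against outlying genes; 2 residual degrees of freedom remain. On the group means 0 genes and 0 members passed a Benjamini-Hochberg adjusted p of 0.05 for OHT in either genotype (0% of 15180 genes). At an unadjusted p under 0.05, limma on the group means picked Fgfr1, Fgfr2 and Fgf15 in the wild type, 3 of 9 members beside 5.96% of all genes, and Fgf15 alone in the labelled knockout, 1 of 9 beside 3.85%. In the paired fit 6 of 9 members passed in the wild type, 3 higher and 3 lower, beside 16.8% of 15177 genes (7.19% higher and 9.64% lower). In the labelled knockout 3 of 9 passed, Fgfr1 higher and Fgf5 and Fgf15 lower, beside 12.4% of genes (3.99% higher and 8.37% lower). The members were chosen with earlier results of these data known, so an excess of members over all genes is no independent evidence. With pools as blocks and nothing else changed, limma passed 0 members and 0 genes. In that fit an unadjusted limma p under 0.05 was reached by 7 members in the wild type, beside 3644 of 15180 genes. In the labelled knockout 5 members reached it, beside 3087 of 15180 genes. Leaving out a pool leaves its genotype with 1 pair of arrays, assumed to vary like the others, and this holds for each such value below. Without pool A1 or without B1, Fgfr1 alone passed in the wild type, beside 397 and 360 genes.

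**Figure D1:**
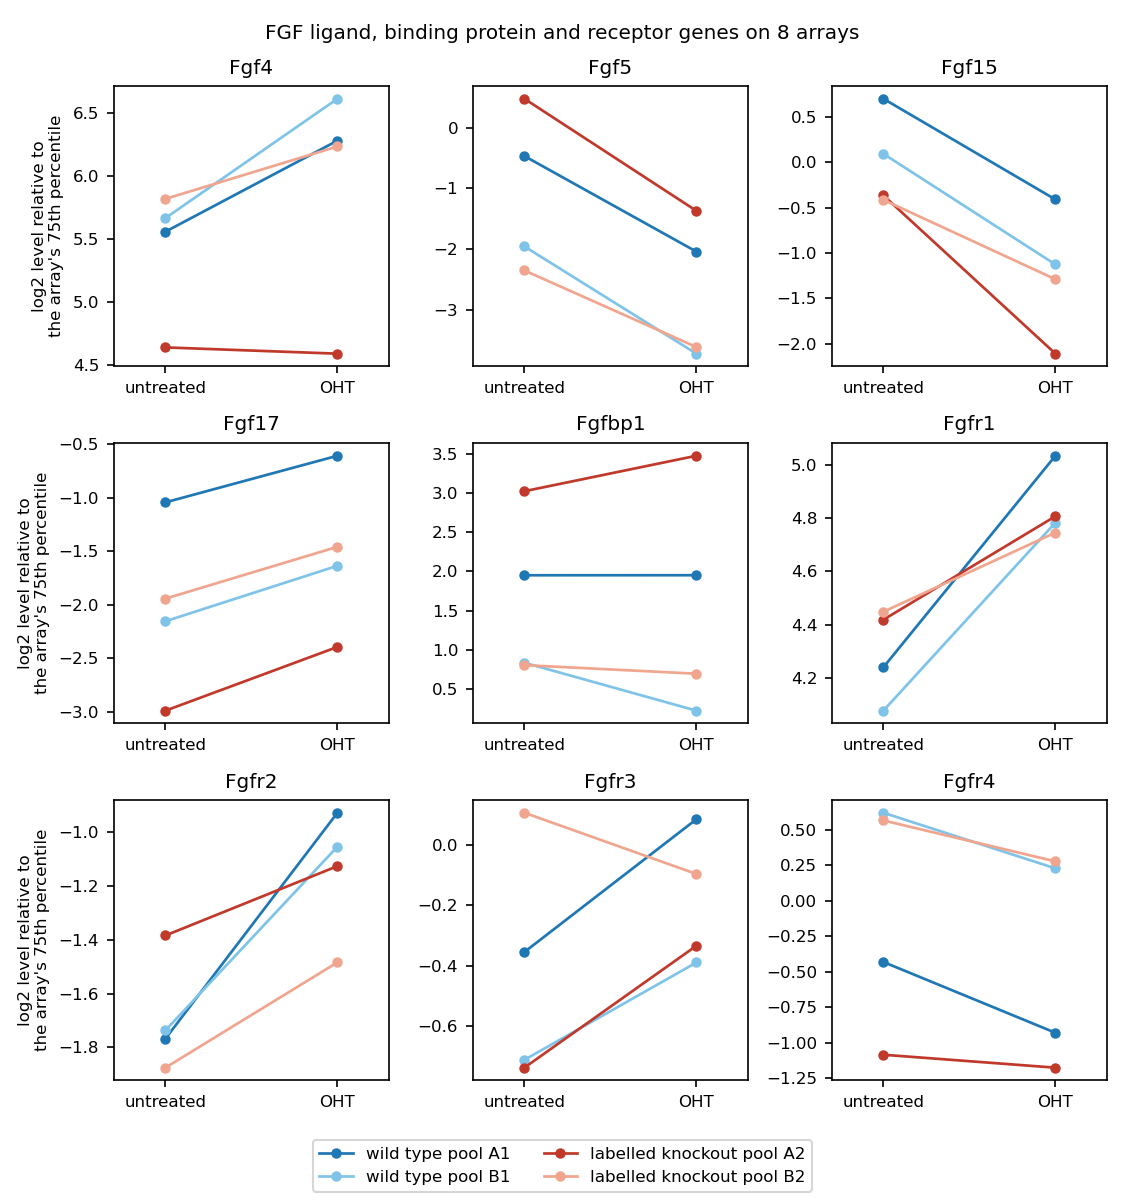
Level of each of the 9 genes on the 8 arrays (y axis, log2 relative to the array's 75th percentile, 1 tested probe a gene, own scale in each panel), untreated and with OHT (x axis); each line joins the 2 arrays of a pool. Fgf5 and Fgf15 fall in all 4 pools, while the lines of pool A2 lie lowest for Fgf4 (4.64 and 4.59) and Fgf17 (-2.99 and -2.40) and highest for Fgfbp1 (3.02 and 3.48).

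Fgf4, the main FGF ligand of ES cells, was higher after OHT in both wild type pools and lowest in pool A2. Its levels were 5.56 in A1 and 5.67 in B1 untreated, and 6.28 and 6.61 with OHT, with no overlap. The labelled knockout had levels of 4.64 in A2 and 5.82 in B2 untreated, and 4.59 and 6.24 with OHT. Here B2 read like the wild type and A2 lay below the 6 other arrays at both times. The wild type change was 0.83 ± 0.62 (SE, 2 arrays a group) on the group means, with a limma adjusted p of 1.00, and 0.84 ± 0.13 or 1.79-fold in the paired fit, with an adjusted p of 0.0108. In the labelled knockout it was 0.12 ± 0.13 in the paired fit (95% interval -0.20 to 0.44, limma adjusted p 0.579), from -0.05 in A2 and 0.42 in B2, and with median scaling of the arrays the group-mean value turned to -0.01. By group mean the order was wild type with OHT (6.45 ± 0.23, SD, n = 2), wild type untreated (5.61 ± 0.08), labelled knockout with OHT (5.41 ± 1.16) and untreated (5.23 ± 0.83), and only the first pair of neighbours did not overlap.

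Fgf5, an epiblast marker gene whose product also ends hair growth, was lower with OHT in every pool. It read -0.47 in A1 and -1.96 in B1 untreated, and -2.05 and -3.73 with OHT. Labelled knockout levels were 0.48 in A2 and -2.36 in B2 untreated, and -1.37 and -3.62 with OHT. Untreated and OHT arrays did not overlap in the wild type but did in the labelled knockout, where untreated A2 was 7.13-fold above B2. In the wild type untreated A1 was 2.81-fold above B1. Within pools it was lower by 2.99-fold in A1, 3.41-fold in B1, 3.61-fold in A2 and 2.40-fold in B2. The B pool spots with OHT were faint, with intensities of 25.6 in B1 and 34.1 in B2, though marked well above background. With normexp background correction the log2 differences were smaller in size: -1.27 in A1, -1.08 in B1, -1.52 in A2 and -0.62 in B2. The paired fit gave a fall of 3.18-fold in wild type cells (limma adjusted p 0.0032) and of 3.07-fold in the labelled knockout (adjusted p 0.00829), and the difference of the log2 effects was 0.05 (95% interval -0.65 to 0.74). On the group means the wild type change was -1.67 ± 1.26 (limma adjusted p 1.00). Without pool A2 the labelled knockout change was -1.30 with a limma adjusted p of 0.0708.

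Most other listed markers of the epiblast were lower too. Of the 6 listed epiblast markers, 5 passed as lower and 0 as higher in the paired fit in each genotype. Fgf5 is itself among those 5 and counts in the list medians and summed levels below. The list was chosen with earlier results of these data known and is no independent evidence of direction. Over all genes 9.64% passed as lower for the wild type, and 8.37% for the labelled knockout. The list medians were -1.52 and -1.27, beside -0.04 and -0.03 over all genes tested. All 6 markers were above background on every array. Their summed level relative to the 75th percentile was 165 to 171 in untreated wild type and 63.2 to 69.2 with OHT, and 148 to 188 and 72.1 to 103 in the labelled knockout. Whether the share of such cells moved Fgf5 was not tested.

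Fgf15, whose product acts as an endocrine signal from the gut to the liver in the adult and is made in the early embryo, was lower after OHT in every pool. Its levels were 0.70 in A1 and 0.09 in B1 untreated, and -0.41 and -1.13 with OHT. In the labelled knockout they were -0.36 in A2 and -0.41 in B2 untreated, and -2.11 and -1.29 with OHT. In neither genotype did untreated and OHT arrays overlap. The paired fit gave -1.16 ± 0.22 for the wild type and -1.37 ± 0.22 for the labelled knockout (limma adjusted p 0.0158 in both), or 2.23-fold and 2.58-fold lower. On the group means the changes were -1.16 ± 0.40 and -1.31 ± 0.40, with unadjusted limma p of 0.0274 and 0.0174 and adjusted p of 0.714 and 1.00. Without pool A2 the labelled knockout change was -0.91, with a limma adjusted p of 0.0544. In the order of group means, untreated wild type (0.40 ± 0.43, SD, n = 2) came first and the labelled knockout with OHT (-1.70 ± 0.58) last. The labelled knockout untreated (-0.39 ± 0.03) and the wild type with OHT (-0.77 ± 0.51) lay between them and overlapped.

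Fgf17, a ligand of the same subfamily as Fgf8, read -1.04 in A1 and -2.16 in B1 untreated, and -0.61 and -1.64 with OHT. Labelled knockout levels were -2.99 in A2 and -1.94 in B2 untreated, and -2.40 and -1.46 with OHT. Each pool was higher with OHT, by 0.44 to 0.59, but untreated and OHT arrays overlapped in both genotypes and A2 lay below the other 6 arrays at both times. The paired change was 0.48 in both genotypes with limma adjusted p of 0.0879 and 0.100, so it did not pass, and the 95% intervals were 0.10 to 0.87 and 0.09 to 0.86. Quantile scaling and leaving out dark patches kept all 4 pools higher. With median scaling, under which the median of all 15180 genes moved by -0.54 in B2, that pool was lower by 0.06, and with normexp background correction the B1 difference was close to 0 (-2.33e-05).

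Fgfbp1, whose secreted product frees FGFs from the matrix, differed between the A and B pools, and its OHT change did not pass. It read 1.95 in A1 and 0.83 in B1 untreated, and 1.95 and 0.22 with OHT. The labelled knockout read 3.02 in A2 and 0.80 in B2 untreated, and 3.48 and 0.69 with OHT. All 4 arrays of the A pools lay above all 4 of the B pools, with A2 highest, and A2 was 4.66-fold above B2 untreated and 6.88-fold with OHT. The A and B pools were likewise apart, in either direction, for 23.5% of genes measured on all arrays. The paired OHT change was -0.30 (95% interval -0.75 to 0.15, limma adjusted p 0.327) in the wild type and 0.11 (-0.34 to 0.56, adjusted p 0.733) in the other genotype. Pools A1 and A2 were not lower with OHT, and B1 and B2 were. What the letters A and B stand for is not given in the labels beyond the pools.

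Fgfr1, the main FGF receptor gene of ES cells, was higher with OHT in both genotypes. Its tested probe read 4.24 in A1 and 4.08 in B1 untreated, and 5.04 and 4.78 with OHT. Labelled knockout levels were 4.42 in A2 and 4.45 in B2 untreated, and 4.81 and 4.75 with OHT. Untreated and OHT arrays did not overlap in either genotype, with all 4 OHT arrays above all 4 untreated ones. The paired change was 0.76 ± 0.07 in the wild type, 1.69-fold (limma adjusted p 0.000989), and 0.28 ± 0.07 or 1.22-fold in the labelled knockout (adjusted p 0.0389). The difference of these effects did not pass (limma adjusted p 0.289 in the paired fit). On the group means the change was 0.75 ± 0.18 (unadjusted limma p 0.00576, adjusted p 0.530) and 0.34 ± 0.18 (adjusted p 1.00). Both other Fgfr1 probes were also higher in all 4 pools: by 0.29, 0.31, 0.14 and 0.23 in A1, B1, A2 and B2 for one, and by 0.83, 0.56, 0.36 and 0.31 for the other. Under median scaling all 3 probes were lower in B2, the tested one by 0.24, where the median of all 15180 genes moved by -0.54. Without any 1 of the 4 pools the labelled knockout change no longer passed in the paired fit, with limma adjusted p from 0.0841 to 0.175.

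The order of the group means of Fgfr1 was wild type with OHT (4.91 ± 0.18, SD, n = 2), labelled knockout with OHT (4.78 ± 0.04), labelled knockout untreated (4.43 ± 0.02) and wild type untreated (4.16 ± 0.12). The first pair of neighbours overlapped and the others did not. The labelled knockout was higher untreated and lower with OHT than the wild type, but neither difference passed: 0.28 ± 0.18 untreated and -0.13 ± 0.18 with OHT on the group means, with limma adjusted p of 1.00 and 0.999.

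Fgfr2, a receptor gene used by trophoblast and primitive endoderm, was higher with OHT in the wild type. Its tested probe read -1.77 in A1 and -1.74 in B1 untreated, and -0.93 and -1.05 with OHT, with no overlap. Labelled knockout arrays read -1.38 in A2 and -1.88 in B2 untreated, and -1.13 and -1.48 with OHT, which overlapped. The paired change was 0.77 ± 0.15 in the wild type, 1.70-fold (limma adjusted p 0.0171), and 0.26 ± 0.15 in the labelled knockout (95% interval -0.10 to 0.63, adjusted p 0.302). A second Fgfr2 probe, printed on 10 spots of each array, was higher by 1.09 in A1, 1.06 in B1, 0.15 in A2 and 0.29 in B2. The SD among its usable spots, 8 to 10 an array, was 0.08 to 0.32, which is the technical spread of single spots within an array. Median scaling turned pool B2 lower on both probes, by 0.15 on the tested one, and quantile scaling turned it lower on the second probe, by 0.15. With normexp background correction both probes stayed higher in all 4 pools, but the wild type rises shrank. They were 0.63 in A1 and 0.35 in B1 on the tested probe, and 0.44 and 0.02 on the second.

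Fgfr3, which keeps bone growth in check, did not pass in either genotype. It read -0.35 in A1 and -0.71 in B1 untreated, and 0.08 and -0.39 with OHT. Labelled knockout levels were -0.74 in A2 and 0.10 in B2 untreated, and -0.33 and -0.10 with OHT. Pools A1, B1 and A2 were higher with OHT and B2 was lower, and the groups overlapped. The paired change was 0.39 in the wild type (95% interval 0.02 to 0.75, limma adjusted p 0.136) and 0.04 in the labelled knockout (-0.32 to 0.40, adjusted p 0.896). Its second probe differed by 0.07 in A1 and by -0.10 in A2, where the tested probe was higher. In B1 and B2 it was well above background with OHT but not in the untreated array, so no difference is given there.

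Fgfr4, the receptor gene through which FGF15 acts in the liver, was lower with OHT and otherwise split by pool. Its tested probe read -0.43 in A1 and 0.62 in B1 untreated, and -0.93 and 0.23 with OHT. In the labelled knockout it read -1.08 in A2 and 0.56 in B2 untreated, and -1.18 and 0.28 with OHT. All 4 arrays of the B pools lay above all 4 of the A pools, and A2 below the other 6. A and B pools did not overlap for 23.5% of genes measured on all arrays. Within each pool the OHT array was lower, by 0.09 to 0.50. In A2 with OHT the spot lay in an area of lowered signal (-0.32, against 0.025 untreated), short of the -0.5 that marks a dark patch. The A2 change of this probe, -0.09, was smaller than that lowering. The paired change was -0.44 ± 0.12 in the wild type, 1.36-fold lower (limma adjusted p 0.0447), and -0.25 ± 0.12 in the labelled knockout (95% interval -0.53 to 0.03, adjusted p 0.204). Without pool B2 the wild type adjusted p was 0.0525. With dark patches kept it was 0.0762. For the second Fgfr4 probe the differences were -0.19 and -0.17 in A1 and B1 but 0.38 and 0.56 in A2 and B2, and the mean of both probes was 0.14 higher in the labelled knockout, so its direction there depends on the probe. Under median scaling the tested probe was 0.06 higher in A2.

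**Figure D2:**
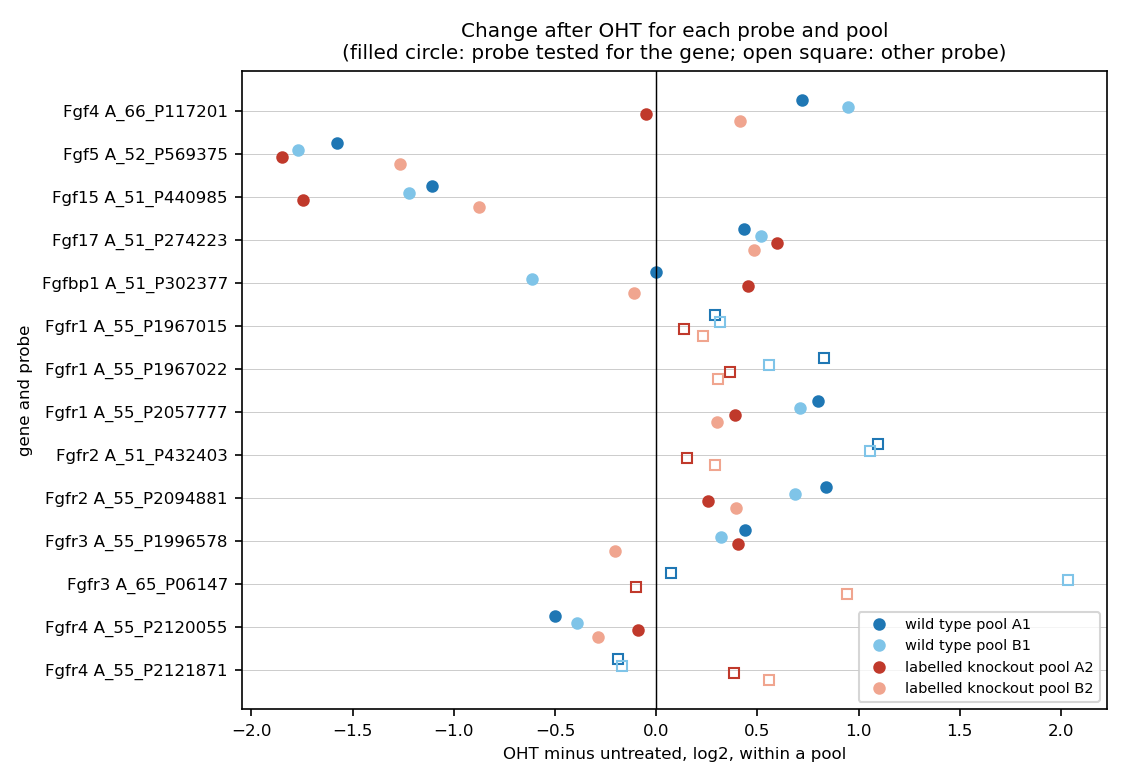
Change after OHT (x axis, log2, OHT minus untreated within a pool) for each of the 14 probes (y axis), with 1 point a pool; filled circles are the tested probes and open squares the others. The 3 Fgfr1 probes and both Fgfr2 probes are above 0 in every pool, which median scaling reverses in B2, while the Fgfr4 probes point in opposite directions in A2 and B2; the open squares of Fgfr3 in B1 and B2 are set against untreated spots not well above background.

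Across the 9 genes, the difference had the same sign in all 4 pools for 6: Fgf5, Fgf15 and Fgfr4 were lower, and Fgf17, Fgfr1 and Fgfr2 higher, beside 45% of 15081 genes measured on all arrays (24.2% lower and 20.8% higher). The A2 difference of Fgfr4 rests on a spot in an area of lowered signal, as given above. Median scaling left Fgf5 and Fgf15 with a shared direction and turned 1 pool of Fgf17, Fgfr1, Fgfr2 and Fgfr4. OHT and untreated arrays did not overlap for 5 members in the wild type (Fgf4, Fgf5, Fgf15, Fgfr1 and Fgfr2), beside 39.1% of genes, and for 2 in the labelled knockout (Fgf15 and Fgfr1), beside 26.3%. Both A2 arrays lay below the other 6 for 3 members (Fgf4, Fgf17 and Fgfr4), beside 17.9% of genes, and above them for Fgfbp1, which puts A2 outside their range for 4 members beside 31.6% of genes. The 4 wild type and 4 labelled knockout arrays were apart for 0 members, beside 2.06% of genes. The A and B pools did not overlap for 2 (Fgfr4 and Fgfbp1), beside 23.5%.

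**Figure D3:**
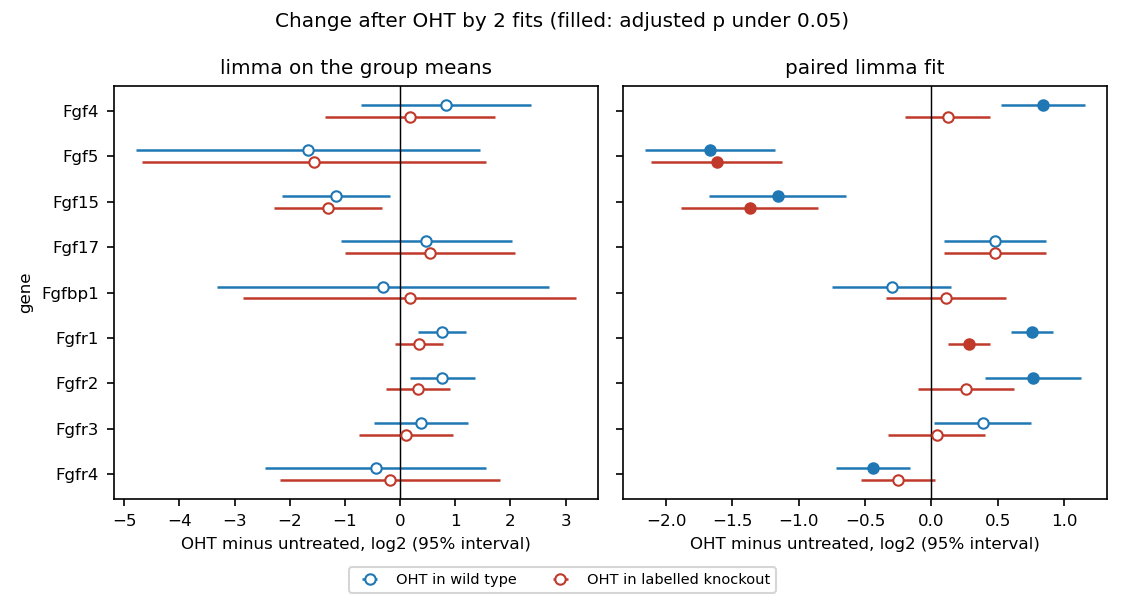
Change after OHT (x axis, log2, own scale in each panel) with its 95% interval for each gene (y axis) in the wild type and the labelled knockout, from limma on the group means (left) and the paired limma fit (right); filled points have an adjusted p under 0.05. Both fits give nearly the same changes, such as 0.83 and 0.84 for Fgf4 in the wild type, and the intervals are narrower in the paired fit.

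The difference of the OHT effects asks whether ERF status altered the response. It passed for 0 members and 0 genes in both fits (0% of genes). On the group means 0 members had an unadjusted limma p under 0.05, beside 1.29% of genes. Beside 1244 of 15177 genes, 2 members did in the paired fit. These were Fgfr1, whose change was smaller in the labelled knockout by 0.48 (95% interval -0.70 to -0.25, unadjusted p 0.00143, limma adjusted p 0.289), and Fgf4, smaller by 0.72 (-1.17 to -0.27, unadjusted p 0.00807, adjusted p 0.435). For Fgfr2 the difference was -0.50 (-1.02 to 0.01, limma adjusted p 0.610). Without pool B2, which leaves the labelled knockout with the single pair of A2, the Fgf4 difference was -0.98 with a limma adjusted p of 0.0471. Without A2, with B2 alone, it was -0.46 (adjusted p 0.373). Without single arrays it ran from -1.47 to 0.17 on the group means.

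Genotypes compared at one treatment gave 0 members and 0 genes in both fits (0% of genes) and 0 members under an unadjusted limma p of 0.05, beside 1.36% of genes untreated and 2.2% with OHT on the group means and 29 and 217 genes in the paired fit. Fgf15 was lower in both labelled knockout pools than in both wild type pools, untreated and with OHT: by 0.79 untreated (95% interval -1.77 to 0.19, unadjusted limma p 0.0968) and by 0.93 with OHT (-1.91 to 0.05, unadjusted p 0.0591), with adjusted p of 1.00 and 0.999. With the slide as a block these values were -1.12 and -1.26. For Fgf4 the differences were -0.38 (-1.92 to 1.15) untreated and -1.03 (-2.57 to 0.50) with OHT, with limma adjusted p of 1.00 and 0.999, and without the A2 array they were 0.21 and -0.21. The intervals of Fgf5 (-2.84 to 3.39) and Fgfbp1 (-2.49 to 3.53) untreated were wider still.

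Fgf4 is a target of POU5F1 and SOX2 in ES cells, and the levels of those genes and of Nanog were set beside it. Pou5f1 read 3.88 and 4.02 in A2 against 4.96 to 5.68 on the other 6 arrays, and Sox2 read 2.91 and 3.25 in A2 against 3.42 to 3.69. Nanog read 5.65 and 5.77 in the wild type untreated and 7.06 and 7.03 with OHT, and 4.26 and 5.87 in the labelled knockout untreated and 5.78 and 6.67 with OHT. All 3 were thus lowest in A2 untreated, as Fgf4 was low there. Nanog rose with OHT in the paired fit in both genotypes, by 2.54-fold and 2.14-fold (limma adjusted p 0.00958 and 0.0239), including in A2, where the Fgf4 difference was -0.05. The Sox2 differences were 0.18 and 0.17 (limma adjusted p 0.152 and 0.184) and those of Pou5f1 -0.28 and -0.06 (adjusted p 0.0617 and 0.655). Over the 8 arrays, which share 4 pools, the level of Fgf4 correlated with that of Sox2 at r = 0.90, Nanog at 0.85 and Pou5f1 and Erf at 0.74 each. Values of this size were not particular to Fgf4. Fgf5 correlated with Sox2 at -0.87 and Nanog at -0.85, Fgf17 with Pou5f1 at 0.79, and Fgfr4 with Erf at 0.82. Others were weak, such as Fgfr2 with Sox2 at 0.01 and Fgf15 with Nanog at -0.27. Both A2 arrays lay outside the range of the other 6 for 31.6% of genes.

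**Figure D4:**
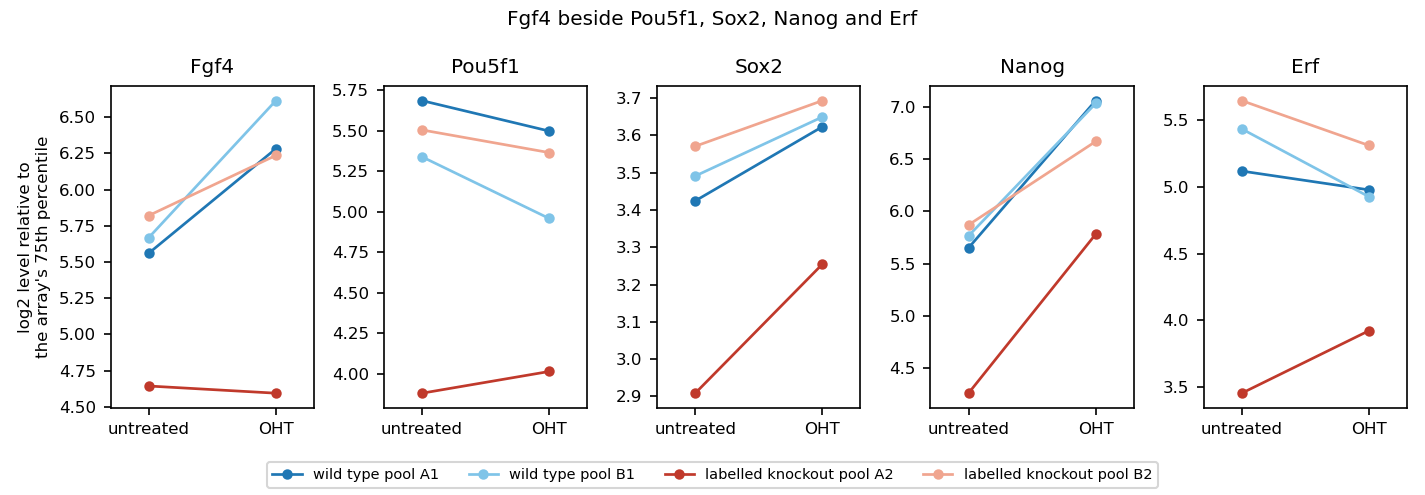
Levels (y axis, log2 relative to the array's 75th percentile, own scale in each panel) of Fgf4, Pou5f1, Sox2, Nanog and Erf, untreated and with OHT (x axis), with 1 line a pool. Pool A2 is the lowest line in every panel, with Fgf4 at 4.64 and 4.59 and Nanog at 4.26 and 5.78.

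By the same measure the genes whose levels were most like those of the members were, as a description over 8 arrays, Tcl1 (r = 0.985) and Fig4 (0.984) for Fgf4, Gbe1 (0.990) and Sox3 (0.986) for Fgf5, and Bcl11a (0.984) and Tfb1m (0.968) for Fgf15. For Fgf17 they were 2410137M14Rik (0.962) and Man2c1 (0.958), and for Fgfbp1 Pfkfb3 (0.995) and Ltb4r1 (0.992). Among the receptors they were Nxph3 (0.960) and Tmem201 (0.953) for Fgfr1, Rcan1 (0.977) and Lhx2 (0.971) for Fgfr2, Setdb1 (0.919) and Tgif2lx1 (0.905) for Fgfr3, and Zap70 (0.999) and Shfl (0.995) for Fgfr4. Each pair was the top of the 15081 genes measured on all arrays, and pool, slide and treatment are shared by the points.

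Around the members stood the other FGF ligands. Of 14 measured among 18 listed, 0 passed for the wild type and 1 for the labelled knockout in the paired fit, where Fgf23, a phosphate-regulating hormone gene, was 0.38 higher (limma adjusted p 0.0443). The shares of all genes that passed were 16.8% and 12.4%. The list median was 0.01 and 0.12. Of 8 measured co-receptor and binding protein genes, Ncam1 alone passed, beside the same shares of all genes. It was higher by 1.95 ± 0.17 in wild type cells (limma adjusted p 0.00161) and by 0.99 ± 0.17 in the labelled knockout (adjusted p 0.0211). It encodes a neural adhesion molecule that can bind FGF receptors, and it read 0.67 and 0.38 untreated against 2.48 and 2.45 with OHT in the wild type, and 1.35 and 0.41 against 2.08 and 1.79 in the labelled knockout. In neither genotype did the arrays overlap.

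Of 18 measured heparan sulfate genes, 3 passed as higher and 2 as lower in the wild type in the paired fit. Beside them, 7.19% of all genes passed as higher and 9.64% as lower, and the list median was 0.13. In the labelled knockout 4 passed as higher and 0 as lower, beside 3.99% and 8.37% of all genes, with a median of 0.05. By sign alone 9 were higher and 9 lower there. Hs6st1, a sulfotransferase that makes heparan sulfate fit to bind FGFs, read 0.02 and -0.09 untreated and 1.32 and 1.24 with OHT in the wild type, a rise of 1.32 ± 0.12 (limma adjusted p 0.000997). In the labelled knockout it read 0.01 and -0.29 untreated and 0.49 and 0.44 with OHT, a rise of 0.54 ± 0.12 (limma adjusted p 0.0308). The difference of those effects did not pass (limma adjusted p 0.311). Sulf2, an extracellular sulfatase gene, rose by 0.38 and 0.32. The related transferase gene Hs6st2 fell by 0.95 and Sdc1 by 0.39 in the wild type, where Extl3 rose by 0.27, and Sdc3 and Gpc4 rose by 0.54 and 0.63 in the labelled knockout.

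Among 12 measured adaptor genes, Shc1 was lower in both genotypes in the paired fit, by 0.34 and 0.38 (limma adjusted p 0.0290 and 0.0295). No other adaptor gene passed in wild type cells. Of all genes, 16.8% passed there and 12.4% did for the labelled knockout. Frs3, one of the docking proteins of the receptors, was not well above background on both untreated labelled knockout arrays and read -2.80 and -2.83 with OHT there. Its rise was at least 3.65-fold, a bound set on each untreated array by the faintest probe that counted as above background or by its own signal, whichever was brighter. The paired fit used the measured signals of those untreated arrays, so its limma adjusted p of 0.0239 is no measure of this bound. The medians of the adaptor list were 0.04 and 0.02. Its members Grb2, Ptpn11 and Frs2, central to receptor signalling, had differences of 0.19, -0.01 and 0.23 in the wild type and did not pass.

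Feedback and response genes, which ERK induces, were mostly lower. In the paired fit 11 of 12 passed as lower in the wild type and 9 of 12 in the labelled knockout, and 0 passed as higher. Over all genes 9.64% and 8.37% passed as lower. The list medians were -1.93 and -1.09. Dusp6 read 4.89 and 4.97 untreated and 2.62 and 2.60 with OHT in the wild type, and 5.32 and 5.25 untreated and 3.38 and 3.15 with OHT in the labelled knockout. It fell by 2.31 ± 0.07 and 2.08 ± 0.07 (limma adjusted p 5.28e-05 and 0.000139). Dusp4 fell by 2.40 and 2.08, the ETS activator gene Etv4 by 2.10 and 1.89 and Spry2 by 1.76 and 0.92. All of these fell in both genotypes. In the paired fit the difference of the effects was above 0 for 10 of the 12 and below 0 for 2, with a median of 0.53. For a gene that fell, a difference above 0 is a weaker fall in the labelled knockout. An unadjusted limma p under 0.05 was reached by 5 of the 12, beside 1244 of 15177 genes. For this difference 0 of the 12 passed (smallest limma adjusted p 0.173, for Il17rd). The list was chosen with these data known and is no independent evidence of direction.

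**Figure D5:**
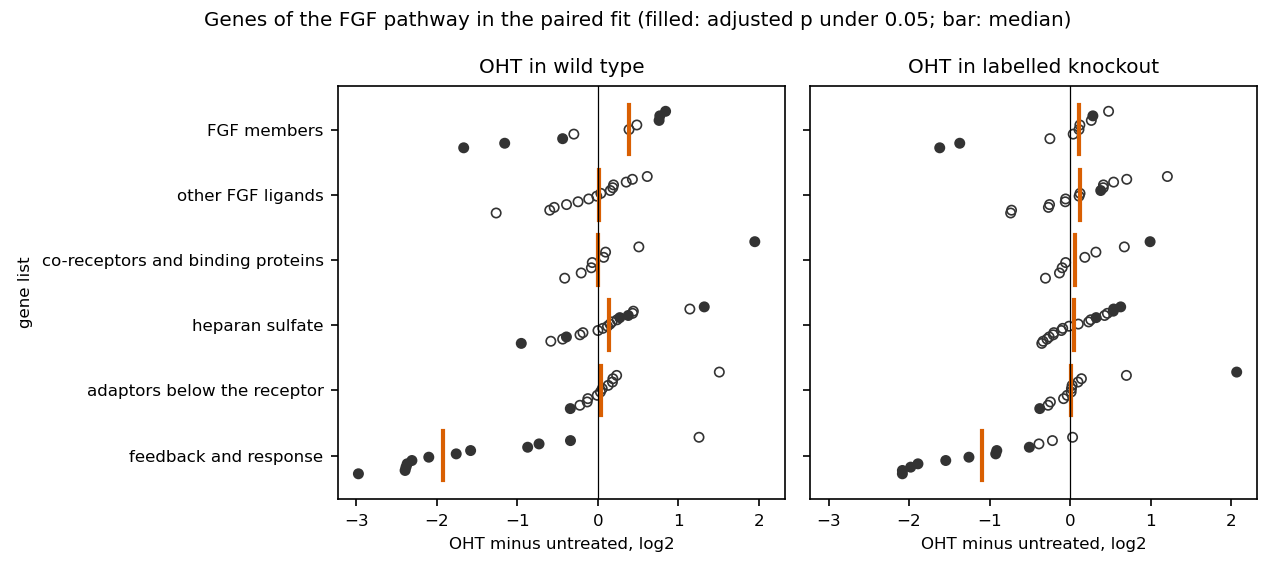
Change after OHT (x axis, log2, paired fit) of each measured gene of 6 lists (y axis) in the wild type (left) and the labelled knockout (right); filled points have an adjusted p under 0.05 and bars are list medians. The members spread to both sides of 0, while the feedback and response list lies mostly below 0, with medians of -1.93 and -1.09.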

How the data were processed

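Each of the 8 arrays carried Cy3-labelled total RNA of 1 sample, per the labels. Deposited scanner files give a background-subtracted intensity for every spot, unscaled between arrays and written, per the file headers, by Agilent Feature Extraction 11.5.1.1. Deposited spot and local background intensity values entered the normexp alternative (offset 50). Deposited 0 or 1 flags, per the file headers, mark spots above background, saturated or non-uniform. The normalisation and tests of the authors are not given in the sources used here. The series value table was not used.

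Of 62976 spots, 59305 were no controls. Flagged spots were left out, spots of a probe averaged, and log2 signals taken minus each array's 75th percentile. Probes were named through a RefSeq table of GRCm38.p6, and a probe entered the tests when both arrays of 1 group or more had it well above background. Where a gene had several such probes, the brightest by mean level stood for it. A dark patch is a square of 15 by 15 spots whose median deviation from the probes' usual level was below -0.5.

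Groups came from the titles, and pairing from the source names, which give the same pool with and without OHT. Deviations from the group means correlated at 0.658 for untreated against OHT in the wild type and at 0.443 in the labelled knockout. Differences were tested two-sided with limma 3.58.1 in R 4.3.3, on group means and in the paired fit, with Benjamini-Hochberg adjustment over all genes and a threshold of 0.05. For genotype comparisons the pools were a random block. The labels call the samples of a group biological replicates. On the group means, p-values measure the spread between mixes of clones, which in the wild type also lie on different slides. For OHT in the paired fit, they measure how the change within a pool differs between pools of a genotype, with a variance shared by both genotypes. On simulated data only the OHT comparisons and their difference were run, with changes placed in the wild type with OHT alone. Leaving out dark patches and comparing genotypes were not tried there, and no outcome is given here. Tables and figures used Python 3.11.15, numpy 2.4.6, pandas 2.3.3 and matplotlib 3.10.9.

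Named genes are the 9 members, Erf, Pou5f1, Sox2 and Nanog, the 2 genes most correlated with each member, and from each pathway list up to 4 that passed with the smallest p. The other genes named from a list, and markers, were chosen after their values were seen. Members and lists were chosen with earlier results of these data known. In all, 29 other settings were tried: background correction, scaling, filters, probe rule, slide, blocks, variance, and leaving out arrays and pools.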

Additional observations from a re-analysis of the deposited data

How the results depend on the processing

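On the group means 0 genes passed for OHT in the wild type, and 4 passed with probes above background on all 8 arrays only, 3 with trended and robust variance and 14 with array weights. The letters A and B of the pools, which follow the replicate numbers, are not said to pair the genotypes; deviations correlated at 0.226 to 0.508 between groups of different genotype. The replicate block by letter, chosen after seeing the data, gave 0 genes and 0 members in all 5 comparisons on the group means. With pools as a random block, dark patches out and trended variance it gave 0 genes and 0 members between genotypes, and an unadjusted limma p under 0.05 for 435 genes untreated (Fgfr1 among them) and 1207 with OHT (Fgf4, Fgf15 and Fgfbp1 among them). The replicate block (pools) alone gave 0 genes and 0 members in both genotypes. The replicate block with trended and robust variance gave 1458 genes and 5 members in the wild type and 383 genes and 1 member in the labelled knockout, and with dark patches left out too, the paired fit, 2554 and 6, and 1876 and 3. Leaving out single arrays, or pools in the paired fit, gave 0 to 2887 genes and 0 to 6 members for OHT in the wild type, 0 to 653 and 0 to 2 in the labelled knockout, 0 to 325 and 0 to 1 for the difference of the effects, 0 to 21 and 0 for the genotypes untreated, and 0 to 386 and 0 with OHT.

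Reversals of direction came from median scaling in the labelled knockout (Fgf4 -0.0114, Fgfr3 -0.0942, Fgfbp1 -0.0227), from the mean of all probes (Fgfr4 0.1399) and from slide 1 alone (Fgfbp1 0.0005 in the wild type). Without single arrays or pools the sign turned for Fgf17 (-0.0786 to 1.03), Fgfr4 (-1.02 to 0.13) and Fgfbp1 (-1.17 to 0.56) in the wild type, for Fgf4 (-0.64 to 1.00), Fgfr3 (-0.32 to 0.52), Fgfr4 (-1.01 to 0.64) and Fgfbp1 (-1.22 to 1.56) in the labelled knockout, and for Fgf4 in the difference (-1.47 to 0.17) and between genotypes untreated (-0.97 to 0.21). The causes were not tested. Median scaling moved the median of all genes to 0.16 (wild type) and -0.18 (labelled knockout), from -0.05 and 0.02. In the wild type the Fgf5 change lay between -1.67 and -1.17 under the other settings that kept all arrays or slide 1, and Fgfr1 between 0.58 and 0.96. With 2 arrays a group the number of arrays limits precision, and dim probes such as the second one of Fgfr3 lie near background.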
